A study of Mus musculus with 25 samples.

Results

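Genes of heme breakdown, iron storage, iron export and antioxidant defence were followed in myeloid cells of the mouse spinal cord after spinal cord injury (SCI). The 10 genes, Hmox1, Slc40a1, Fth1, Ftl1, Nqo1, Gclm, Slc7a11, Txnrd1, Srxn1 and Prdx1, were taken by name from the 22439 genes of the count matrices, and all 10 were found. The 25 libraries came from a 5 mm piece of cord, freed of myelin and sorted for fluorescent cells, and were made by droplet-based 3′ single-cell RNA-seq. Each library held tissue of 1 to 3 mice and is the replicate here. The groups were laminectomy alone (Ctrl, 2 libraries) and 1 day (D1, 5), 2 days (D2, 4), 3 days (D3, 7), 10 days (D10, 5) and 21 days (D21, 2) after injury.

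All mice carried Cx3cr1CreERT2, a tamoxifen-inducible Cre under the control of Cx3cr1, a gene expressed by microglia and by many monocytes. In 12 libraries, called mixed here, cells were sorted as YFP+ from mice labelled Cx3cr1CreERT2. The other 13 came from the strain Cx3cr1CreERT2:R26tdTomato, which adds a red reporter at the Rosa26 locus. Of these, 5 were sorted as RFP+/YFP+ and titled resident, and 7 were sorted as RFP-/YFP+ and titled infiltrating. The remaining library, from D3, carried a title of one sort and the label of the other, and entered no comparison between groups of libraries. Both sexes were used, and the ages and any tamoxifen schedule are not given in the sources used here. Sort and strain were split in the same way between mixed and other libraries, so they cannot be told apart there.

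Heme oxygenase-1 (Hmox1) opens the heme ring and sets iron, biliverdin and carbon monoxide free. The iron is stored in ferritin, a shell of heavy chains (Fth1), which oxidise iron, and light chains (Ftl1), or leaves the cell through ferroportin (Slc40a1), the known iron exporter of mammals. In macrophages that take up red blood cells, heme releases the repressor BACH1 from DNA and the factor NRF2 takes its place at antioxidant response elements. Genes known as NRF2 targets include Nqo1 (a quinone reductase), Gclm (the modifier subunit of the enzyme that starts glutathione synthesis), Slc7a11 (the cystine carrier of system xc-), Txnrd1 (cytosolic thioredoxin reductase), Srxn1 (sulfiredoxin, which repairs overoxidised peroxiredoxins) and Prdx1 (a peroxiredoxin that removes hydrogen peroxide). Bleeding is part of a contusion or compression of the cord, and microglia and arriving macrophages clear the debris.

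In GRCm38, with the GENCODE M21 annotation, all 10 are protein-coding genes. Hmox1 lies at chr8:75093621-75100589, Slc40a1 at chr1:45908068-45926523, Fth1 at chr19:9980598-9985098 and Ftl1 at chr7:45457944-45459884. The antioxidant genes are Nqo1 (chr8:107388225-107403206), Gclm (chr3:122245557-122270732), Slc7a11 (chr3:49892526-50443614), Txnrd1 (chr10:82833951-82897712), Srxn1 (chr2:152105516-152111376) and Prdx1 (chr4:116685544-116700822).

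Messages of ferritin and ferroportin share a control at the level of translation: iron regulatory proteins bind a hairpin, the iron responsive element, in the 5′ UTR. The hairpins are shown because a UMI count does not see this step. In the 5′ UTRs of the GENCODE M21 annotation (GRCm38), a loop of the letters CAGTGN flanked by 5 paired bases on each side was found in 105 of 20899 genes, or 0.502%. Fth1, Ftl1 and Slc40a1 were among them. The loop is in capitals and each site lies within 1 exon, at chr19:9982732-9982761 on the plus strand for Fth1, chr7:45459778-45459807 on the minus strand for Ftl1 and chr1:45925464-45925493 on the minus strand for Slc40a1.
Fth1: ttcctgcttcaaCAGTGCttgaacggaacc
Ftl1: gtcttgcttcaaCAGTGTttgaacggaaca
Slc40a1: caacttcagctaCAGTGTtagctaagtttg
The 2 ferritin hairpins have the same letters on both sides of the loop for most of their length, and that of Slc40a1 has other letters there.

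The 10 genes were searched for the core of the antioxidant response element, TGACNNNGC, on both strands of RefSeq promoter windows of 300 bases (250 before and 50 after the start, GRCm38.p6). Of the 10 genes 8 had an entry (all but Hmox1 and Slc40a1), and 4 of these held the core: Gclm, Prdx1, Txnrd1 and Srxn1, the last downstream of its start. These genes had 11 windows, of which 4 held the core (36.4%), and over all windows 12.4% held it (4071 of 32851). The core is a match of letters only, and sites outside these windows were not searched. Its surroundings are shown in capitals for the core and in lower case for 20 bases on each side, all on the minus strand, at chr3:122245403-122245451, chr4:116685446-116685494 and chr10:82859094-82859142. All 3 stretches lie outside annotated exons, and that of Txnrd1 lies within the span of the gene.
Gclm: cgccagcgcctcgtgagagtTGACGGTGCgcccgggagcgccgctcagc
Prdx1: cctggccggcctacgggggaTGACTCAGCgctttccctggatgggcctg
Txnrd1: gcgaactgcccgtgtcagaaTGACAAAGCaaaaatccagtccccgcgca
The Prdx1 core overlaps the letters TGACTCA, the usual AP-1 motif.

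The libraries held 155 to 3800 cells and 486649 to 33204422 unique molecular identifiers (UMIs), with a median of 1577 to 11233 UMIs per cell. The deposited cell table names 4 cell types by code, which were checked against markers. The first carried 9 of 9 microglia markers (13289 cells) and the second 6 of 8 monocyte and 8 of 9 macrophage markers (12841 cells, called macrophages here). The third carried 7 of 9 dendritic cell markers (2712 cells) and the fourth 7 of 7 neutrophil markers (2116 cells). The neutrophil-like cells also carried 3 of 5 erythroid markers, Hba-a1, Hba-a2 and Hbb-bs. UMIs were summed per library and type where it had at least 20 cells, and levels are given as UMIs of a gene per 1000000 UMIs of that sum (CPM). Counts were tested with edgeR's quasi-likelihood fit, adjusted for sex as labelled (for infiltrating D2 library 1 the deposited cell table has the other code), and a gene is said to be called where its Benjamini-Hochberg adjusted p over all genes tested is below 0.05. The labels do not say whether libraries of a group came from separate experiments. Pairs of libraries shared at most 4 cell barcodes.

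In microglia, Hmox1, both ferritin chains and most of the antioxidant genes were higher after injury than in Ctrl, and the iron exporter Slc40a1 was lower. Of the 10 genes, 9 were called at D1 (8 higher, 1 lower), where 46.6% of the 10801 genes tested were called. The median log2 fold change of the 10 was 3.09, and that of all genes was -0.01. At D2 8 were called (7 higher, 1 lower) beside 29.7% of all genes, and at D3 8 (7 higher, 1 lower) beside 37.6%. At D10 5 were called, all higher, beside 10.3%, and at D21 5, all higher, beside 6.98%. These 5 were Hmox1, Fth1, Ftl1, Srxn1 and Prdx1 at both times. Between D1 and D3 3 were called (1 higher, 2 lower) beside 18.8% of all genes, and between D3 and D10 2, both lower, beside 6.88%. All comparisons with Ctrl share the same 2 Ctrl libraries, 1 mixed and 1 resident. The number called fell at D2, D10 and D21 without mixed Ctrl library 1, most at D10, in a fit with 1 Ctrl library. With the sequencing pool as a term 3 were called at D3 (Hmox1, Ftl1 and Prdx1). The share of all genes called in these fits is not given here, so a loss particular to these genes cannot be told from a general one. With pool as a term D1 and D21 could not be compared with Ctrl, because D1 and D21 microglia share a pool only with each other. Pool and time cannot be told apart in these 2 comparisons. D21 is 1 library, which is taken to vary like the other groups. The fit and the values over time below are of microglia from mixed and resident libraries, and leave out 2 infiltrating libraries that held at least 20 microglia.

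Hmox1, the heme oxygenase, was higher than in Ctrl at D1 and at every later time. The 2 Ctrl libraries had 43.4 and 56.6 CPM, and the 3 D1 libraries had 882, 1372 and 1934 CPM. At D2 the values were 604, 651 and 163 CPM, and at D3 they were 488, 928, 499, 559 and 818 CPM. At D10 they were 130.4, 130.3 and 119 CPM, and the single D21 library had 161 CPM. Every injured library lay above both Ctrl libraries, and the D10 libraries of the fit lay below every D1, D2 and D3 library, while the microglia of infiltrating D10 library 2, outside the fit, had 262 CPM. The log2 fold change over Ctrl was 5.55 at D1 (SE 0.62, adjusted p = 7.71e-06, 46.7-fold). It was 3.70 at D2 (SE 0.55, adjusted p = 0.000183), 4.32 at D3 (SE 0.56, adjusted p = 3.76e-05), 1.93 at D10 (SE 0.51, adjusted p = 0.0195) and 2.56 at D21 (SE 0.64, adjusted p = 0.0181). The falls from D1 to D3 (log2 -1.22, SE 0.37, adjusted p = 0.0274) and from D3 to D10 (log2 -2.39, SE 0.42, adjusted p = 0.00361) also passed the threshold of 0.05. The D10 call was lost when either Ctrl library or resident D10 library 1 was left out, and the D21 call without mixed Ctrl library 1. The fall from D1 to D3 was lost without mixed D1 library 2 or 3, and that from D3 to D10 with pool as a term (-3.48, adjusted p = 0.799).

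Slc40a1, the iron exporter, moved the other way. It stood at 96.1 and 71.7 CPM in Ctrl (538 and 133 UMIs) and at 5.69, 2.56 and 3.71 CPM at D1 (26, 9 and 16 UMIs). At D2 the libraries had 18.9, 5.52 and 14.8 CPM, and at D3 they had 7.94, 17.8, 33.0, 40.5 and 21.4 CPM. At D10 they had 24.4, 28.8 and 36.9 CPM, and at D21 the library had 13.9 CPM. No injured library reached the lower Ctrl library at any time. The log2 fold change from Ctrl was -4.07 at D1 (SE 0.49, adjusted p = 1.24e-05, 16.8-fold lower), -2.53 at D2 (SE 0.46, adjusted p = 0.000929) and -1.61 at D3 (SE 0.42, adjusted p = 0.00688). At D10 it was -1.12 (SE 0.41, adjusted p = 0.0989) and at D21 it was -1.50 (SE 0.59, adjusted p = 0.151), and neither passed. Between D1 and D3 the gene rose again, by 2.46 on the log2 scale (SE 0.42, adjusted p = 0.000893). With the sequencing pool as a term, the D3 difference from Ctrl was 0.29 on the log2 scale (adjusted p = 0.928), and D3 and Ctrl libraries share no pool. The D3 call was also lost without mixed Ctrl library 1, and both the D1 call (adjusted p = 0.0647) and the D3 call in mixed libraries alone.

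The ferritin chains rose and stayed high. Fth1 had 3595 and 4780.0 CPM in Ctrl and 13481, 16538 and 30715 CPM at D1. Its later libraries lay between 8591 CPM (D3) and 16228 CPM (D21). Ftl1 had 1875 and 1629 CPM in Ctrl, 11343, 10169 and 10478 CPM at D1, 8221 to 17704 CPM at D3, 6955 to 7276 CPM at D10 and 9531 CPM at D21. All injured libraries lay above both Ctrl libraries for both chains. Fth1 rose by log2 2.95 at D1 (SE 0.40, adjusted p = 2.95e-05), and Ftl1 by 3.22 (SE 0.34, adjusted p = 5.59e-06). At D10 the differences from Ctrl were still 1.91 for Fth1 (SE 0.37, adjusted p = 0.00232) and 2.56 for Ftl1 (SE 0.31, adjusted p = 5.76e-05). Without mixed Ctrl library 1, in a fit with 1 Ctrl library, these D10 calls did not both hold. Between D1 and D3 Fth1 fell by 0.97 (SE 0.27, adjusted p = 0.0199), a call lost without mixed D1 library 3, where the difference was -0.53. Ftl1 fell later, by 0.99 between D3 and D10 (SE 0.24, adjusted p = 0.0217), and that call was lost when any 1 of the 3 D10 libraries was left out. Fth1, Ftl1 and Prdx1 have processed pseudogene copies, so their counts carry some uncertainty. The row of the copy Ftl1-ps1 held 18460 UMIs over all cells beside 3821524 for Ftl1.

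**Figure D1:**
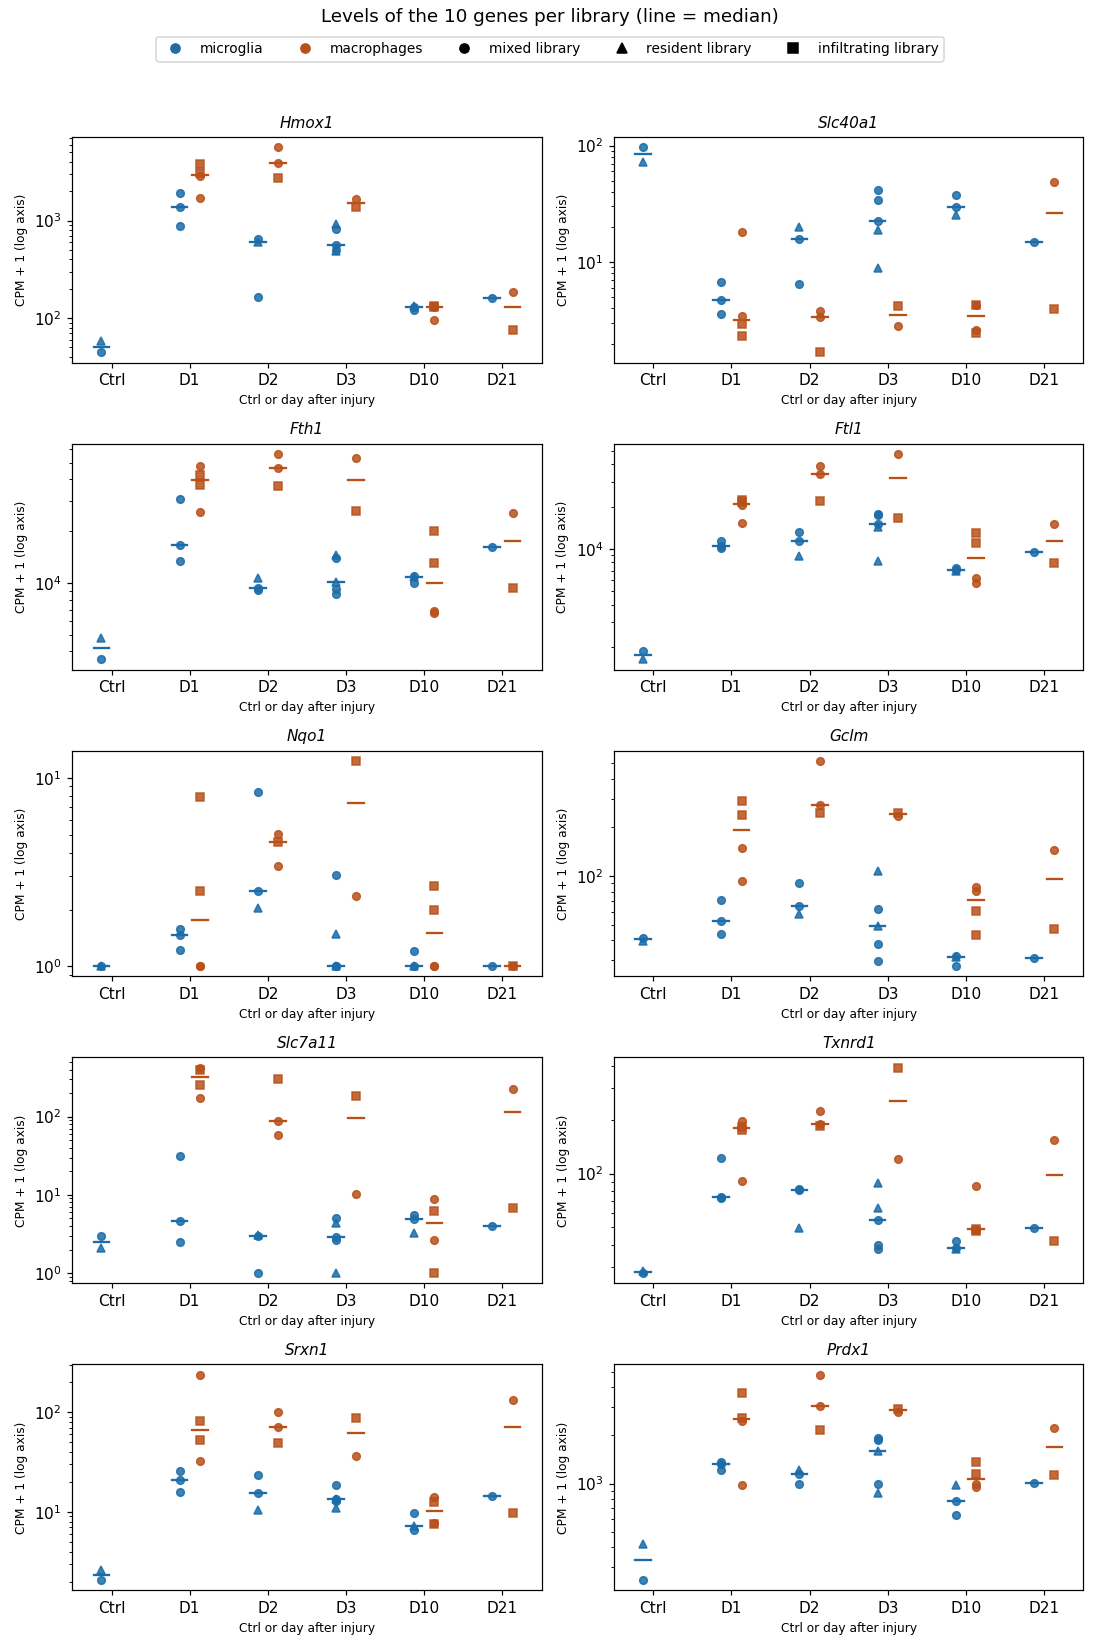
Level of each of the 10 genes (CPM + 1, log axis) in each library by time for microglia and macrophages, with a point per library and a line at the median. In microglia Hmox1 went from 43.4 and 56.6 CPM in Ctrl to 882 to 1934 CPM at D1 while Slc40a1 went from 71.7 and 96.1 CPM to 2.56 to 5.69 CPM.

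Among the antioxidant genes of microglia, Srxn1, Prdx1 and Txnrd1 rose at D1, D2 and D3. With the sequencing pool as a term, the D3 calls of Srxn1 and Txnrd1 were lost. Srxn1, the sulfiredoxin, had 1.07 and 1.62 CPM in Ctrl and 19.9, 14.8 and 24.8 CPM at D1. It had 9.49 to 22.2 CPM at D2, 9.93 to 17.6 CPM at D3, 5.60 to 8.78 CPM at D10 and 13.3 CPM at D21. No injured library of this fit overlapped with Ctrl. The microglia of infiltrating D10 library 2, outside this fit, had no Srxn1 UMI among 84112. The log2 fold change of Srxn1 was 4.60 at D1 (SE 0.50, adjusted p = 6.57e-06), 2.97 at D10 (SE 0.49, adjusted p = 0.000827) and 4.25 at D21 (SE 0.55, adjusted p = 0.000103). Prdx1 had 249 and 419 CPM in Ctrl and 1359, 1332 and 1209.6 CPM at D1, and its later libraries lay between 637 and 1919 CPM. Its rise at D1 was 2.61 on the log2 scale (SE 0.39, adjusted p = 6.99e-05), and it passed the test at every later time. Without mixed Ctrl library 1, in a fit with 1 Ctrl library, the D10 calls of Srxn1 and Prdx1 did not both hold. Txnrd1 had 26.8 and 27.5 CPM in Ctrl and 73.3, 72.1 and 121 CPM at D1. It rose by 2.52 at D1 (SE 0.41, adjusted p = 0.000157), 1.68 at D2 (adjusted p = 0.00495) and 1.73 at D3 (adjusted p = 0.00223). At D10 the difference was 1.12 (adjusted p = 0.0741) and at D21 it was 1.63 (adjusted p = 0.0515).

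Gclm, Slc7a11 and Nqo1 gave smaller or less certain values. Gclm had 40.4 and 38.8 CPM in Ctrl and 42.9, 51.3 and 69.9 CPM at D1, so the groups did not overlap but lay close. Its log2 fold change was 1.16 at D1 (SE 0.44, adjusted p = 0.0406) and 1.15 at D3 (SE 0.41, adjusted p = 0.0363). The D3 call was lost with the sequencing pool as a term. The D1 call was lost under median-of-ratios scaling, with DESeq2, with a minimum of 50 cells per sum and in mixed libraries alone, and when any 1 of 9 libraries was left out. Slc7a11 had 1.97 and 1.08 CPM in Ctrl and 1.53, 3.70 and 30.6 CPM at D1, where mixed library 3 alone held 132 UMIs. Its fitted change at D1 was 3.27 (SE 1.13, adjusted p = 0.0247), and the groups overlapped. That call was lost when either Ctrl library was left out. Nqo1 had no UMI in either Ctrl library and 1, 2 and 2 UMIs in the 3 D1 libraries. At D2 it had 8, 3 and 1 UMIs, and the test passed (adjusted p = 0.0214), though not when either Ctrl library was left out. Pooled over D2 it stood at least 3.00-fold above the floor of 3 counts over both Ctrl libraries.

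Libraries were sequenced in 7 pools, and some pools held Ctrl and injured libraries together. In the pool with resident Ctrl library 1, the resident D2 library gave a log2 ratio to it of 3.42 for Hmox1, -1.93 for Slc40a1, 1.16 for Fth1 and 2.46 for Ftl1. In the same pool the resident D10 library gave 1.20 for Hmox1, -1.56 for Slc40a1, 1.94 for Srxn1 and 1.23 for Prdx1. In the pool with mixed Ctrl library 1, the 2 mixed D10 libraries gave 1.52 for Hmox1, -1.55 for Slc40a1, 2.75 for Srxn1 and 1.51 for Prdx1. Gclm at D10 was lower than Ctrl in both pools (-0.34 and -0.49) and at 0.13 in the whole comparison, where it was not called. The printed directions of the other genes were those of the whole comparison. D1 and D3 microglia share no pool with Ctrl or with each other, nor does D10 with D3. Between D21 and D1, in 1 pool, the log2 ratio was -3.12 for Hmox1 and 1.80 for Slc40a1.

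**Figure D2:**
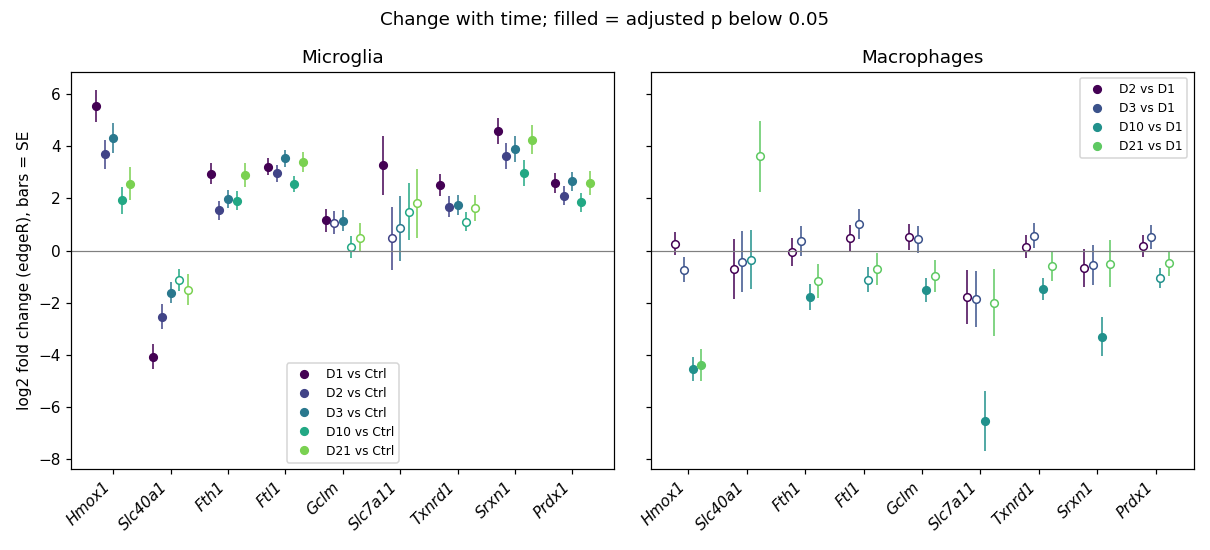
Log2 fold change with its standard error for 9 of the 10 genes at each time, against Ctrl in microglia and against D1 in macrophages, with filled points where the adjusted p is below 0.05. Nqo1 is left out for its low counts. Hmox1 and Slc40a1 lie on opposite sides of 0 in microglia, and in macrophages Hmox1 is at -4.54 at D10 and -4.39 at D21.

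Other measures of the microglial sums moved with time as well. The summed level of the 9 microglia markers was 23288 to 25991 CPM in Ctrl and 4032 to 8316 CPM at D1, and 11970 to 13461 CPM at D10. That of the 9 macrophage markers was 968 to 1085 CPM in Ctrl, 2066 to 2756 CPM at D1 and 4673 to 5737 CPM at D10, and 2 of them, Gpnmb and Fabp4, were at 0 in both Ctrl libraries. The 5 border macrophage markers summed to 1.97 to 5.93 CPM in Ctrl and 34.6 to 150 CPM at D1, with Cd163 and Lyve1 at 0 in Ctrl. The 5 astrocyte markers went from 127 to 152 CPM in Ctrl to 9.05 to 56.9 CPM at D1, and the 7 neutrophil markers from 199 to 219 CPM to 38.1 to 103 CPM. The 5 erythroid markers summed to 8.09 to 33.4 CPM in Ctrl and 14.2 to 31.3 CPM at D1. The mean mitochondrial share per cell was 0.731% to 0.788% in Ctrl and 1.29% to 2.28% at D1. Cells of deposited cluster 2, which have few UMIs, made up none of the Ctrl microglia and 14.9% to 46.2% of D1 microglia. In a fit without that cluster, 9 genes were called at D1, with log2 fold changes of 5.09 for Hmox1 and -4.20 for Slc40a1. The share of all genes called in that fit is not given here. All Ctrl microglia lay in cluster 1, and clusters 5 and 2 held 69.9% and 27.4% of the D1 microglia. The part of the other measures in these results was not tested. In a sum over cells, fewer cells with a gene and less of it per cell cannot be told apart.

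The wider pathways were read from lists that leave out the 10 genes, and each count is to be read against the share of all genes called, 46.6% at D1. In both directions together, the heme, iron, NRF2 regulator and glutathione counts lay at or below that share. The thioredoxin and NADPH counts lay above it. Of all genes 23.9% were called higher and 22.7% lower. At D1, 5 of 17 tested genes of heme handling rose in microglia and 1 fell. Alad (2.65), an enzyme of heme synthesis, and the heme transporter Slc48a1 (1.96) were higher on the log2 scale, and the heme and folate carrier Slc46a1 (-1.11) was lower. Of 19 genes of iron handling 5 rose and 3 fell. Lcn2, which binds bacterial iron carriers, rose by 6.19, the metal importer Slc39a14 by 3.05 and the ferric reductase Steap3 by 2.32. The mitochondrial iron importer Slc25a37 (-2.09), Ireb2 (-1.50), 1 of the iron regulatory proteins, and Hfe (-0.88) fell. Of the 9 regulators of the NRF2 pathway, Maff alone was called (3.66), and neither Nfe2l2 nor Keap1 was. Of 13 glutathione genes 6 rose and none fell, led by Glrx (4.52), Gsto1 (2.83) and Gsr (2.61). Of 12 thioredoxin, peroxiredoxin, superoxide dismutase and catalase genes 7 rose, led by Txn1 (3.16), Sod2 (2.77) and Prdx6 (2.29), and Txnip, the inhibitor of thioredoxin, fell (-1.89). Of 11 genes of NADPH supply and further NRF2 targets, 6 rose and 1, Ephx1 (-1.85), fell.

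At the later times the share of all genes called was 37.6% (D3), 10.3% (D10) and 6.98% (D21). At D3 9 of 13 glutathione genes were higher than Ctrl and none lower, with Gpx3 (6.21), Mgst1 (4.30) and Gstm1 (2.61) in front. At D10 7 were higher, and 4 at D21. Of the heme list 6 rose and 1 fell at D3, led by the biliverdin reductase Blvra (1.81), and Blvra was the only gene of that list called at D10 (1.17) and at D21 (1.49). Maff was higher at D10 (3.87) and at D21 (4.67). Of the iron list 1 gene, Pcbp2 (1.41), an iron chaperone, rose at D3 and 3 fell: Slc25a37 (-1.70), Slc11a1 (-1.10) and Trf (-1.0). Between D1 and D3, where 18.8% of all genes were called, 6 of the 19 iron genes fell and none rose, with Lcn2 (-3.62) and Slc39a14 (-1.96) first. In the same comparison 5 of 13 glutathione genes rose and 2 fell, and 2 of 12 thioredoxin and related genes rose and 3 fell.

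Macrophages had no Ctrl group, because no Ctrl library held 20 such cells, and D1 is the reference. The fit and the values over time are of macrophages from mixed and infiltrating libraries. Hmox1 and 5 other genes of the 10 were lower at D10 than at D1, and no difference was called in the first 3 days. Of the 9 genes tested in macrophages, 6 were called at D10 against D1, all lower, beside 14.4% of the 8577 genes tested. Their median log2 fold change was -1.52 and that of all genes was 0.01. At D21 against D1 1 was called, Hmox1, beside 3.56% of all genes, and at D10 against D3 1, again Hmox1, beside 0.676%. The other 8 differed from D3 to D10 with adjusted p of 0.0708 to 0.994. From D3 to D10 7 of the 10 genes were called without the filter on low counts (234 of all 16026 genes), 8 with DESeq2 (408 of 8577) and 5 in mixed libraries alone (1064 of 7473). No gene of the 10 was called at D2 or D3 against D1, where edgeR called 0% of all genes in both comparisons. At an unadjusted p under 0.05, 123 genes passed at D2 and 612 at D3, none of them among the 9. DESeq2 called 0 and 16 genes, again none of the 9, while in mixed libraries alone 3 of the 10 genes were called at D3 against D1, beside 860 of all 7473 genes. Without infiltrating D1 library 2 or mixed D10 library 2, 3 of the 9 were called at D10 against D1. The mean mitochondrial share was 0.447% to 1.58% in D1 macrophages and 1.68% to 1.89% at D10, and the summed microglia markers were 289 to 1180 CPM at D1 and 938 to 3339 CPM at D10. The 5 border macrophage markers summed to 281 to 5999 CPM at D1 and 22.8 to 51.3 CPM at D10, with Lyve1 at 0 in all D10 libraries. The part of these measures was not tested. The deposited clusters within the type also differed: clusters 11, 12 and 8 held 54.0%, 21.0% and 19.7% of the D1 macrophages, and clusters 9 and 3 held 61.1% and 22.6% of those at D10. A change within cells and a change of clusters cannot be told apart in these sums.

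In macrophages, Hmox1 was highest in the first 2 days and lowest at D10 and D21. The D1 libraries had 3053, 3792, 1686 and 2868 CPM, the D2 libraries 2750.2, 5674 and 3932 CPM, and the D3 libraries 1391 and 1663 CPM. The D10 libraries had 132, 129, 129 and 94.3 CPM, and the D21 libraries had 73.6 and 185 CPM. Every D10 and D21 library lay below every D1, D2 and D3 library. From D1 to D10 Hmox1 fell by 4.54 on the log2 scale (SE 0.45, adjusted p = 8.53e-05, 23.2-fold lower), and at D21 the difference was -4.39 (SE 0.62, adjusted p = 0.00345). From D3 to D10 it was -3.81 (SE 0.48, adjusted p = 0.00235). The D21 call was lost without infiltrating D21 library 1, where the difference was -3.73. Within 1 pool, the D21 mixed library gave a log2 ratio of -3.62 to the D1 mixed libraries, and D10 and D1 macrophages share no pool.

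The cystine carrier Slc7a11 fell far in the same period. It had 255, 394, 174 and 421 CPM at D1, 301, 57.3 and 87.1 CPM at D2 and 183 and 9.33 CPM at D3. At D10 the libraries had 5.20, 0, 1.63 and 7.76 CPM, and at D21 they had 5.88 and 224 CPM. The 4 D10 libraries lay below all D1 libraries, and the 2 D21 libraries were far apart. The change from D1 to D10 was -6.52 on the log2 scale (SE 1.15, adjusted p = 0.00372). Srxn1 had 80.2, 51.7, 237 and 31.6 CPM at D1 and 11.6, 6.61, 13 and 6.66 CPM at D10, and it fell by 3.30 (SE 0.75, adjusted p = 0.0121). The groups did not overlap.

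Fth1, Gclm and Txnrd1 were also lower at D10. Fth1 had 36859, 42471, 25869 and 47983 CPM at D1 and 20000.5, 13131, 6666 and 6866 CPM at D10, and fell by 1.77 (SE 0.49, adjusted p = 0.0291). Gclm had 237, 289, 148 and 92.4 CPM at D1 and 42.1, 59.5, 79.7 and 84.3 CPM at D10, and fell by 1.52 (SE 0.46, adjusted p = 0.0407). Txnrd1 had 175, 181, 195 and 90.0 CPM at D1 and 46.6, 47.9, 84.6 and 47.7 CPM at D10, and fell by 1.48 (SE 0.42, adjusted p = 0.0325). None of the 3 overlapped between D1 and D10, and each lost its call when single libraries were left out, with adjusted p up to 0.099, 0.215 and 0.125. Ftl1 (15364 to 22259.5 CPM at D1, 5680.2 to 13020.3 CPM at D10) differed by -1.12 (adjusted p = 0.128). Prdx1 (978 to 3659 CPM at D1, 944 to 1362 CPM at D10) differed by -1.04 (adjusted p = 0.0787). Neither passed the test.

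Slc40a1 was below 4 CPM in 13 of the 15 macrophage libraries of this fit. In the 4 resident libraries outside it, macrophages had 4.37 to 16.9 CPM. In the fit it had 1.32, 1.94, 16.9 and 2.43 CPM at D1, 0.679, 2.39 and 2.83 CPM at D2, 3.20 and 1.86 CPM at D3, 1.49, 3.31, 1.63 and 3.33 CPM at D10 and 2.94 and 47.8 CPM at D21. The 16.9 CPM rest on 4 UMIs in 28 cells and the 47.8 CPM on 16 UMIs. From D1 to D10 it differed by -0.34 (SE 1.13, adjusted p = 0.876). From D1 to D21 it differed by 3.61 on the log2 scale (SE 1.35, adjusted p = 0.132), which did not pass, and within 1 pool the D21 mixed library gave a log2 ratio of 2.30 to D1. Nqo1 did not pass the filter on low counts in this fit. It had 105 and 24 UMIs in the infiltrating D1 libraries, 198 in the infiltrating D3 library, 5 over all D10 libraries and none in either D21 library.

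The same wider lists were read in macrophages, beside 14.4% of all genes called at D10 against D1. At D10 against D1 none of 16 heme handling genes was called. Of 16 iron genes 1 rose (Hfe, 1.96) and 4 fell, led by Slc39a14 (-3.88), Fbxl5 (-2.35), a subunit of the ligase that degrades an iron regulatory protein, and Slc25a37 (-1.78). Of the 9 regulators of NRF2 none rose and 2 fell, Maff (-3.34) and Mafg (-1.41), which are small MAF partners of NRF2 and BACH1. Of 14 glutathione genes Gpx3 (3.79) and Mgst1 (1.41) rose and Glrx (-2.50) and Slc3a2 (-1.81) fell, the last being the heavy chain that pairs with Slc7a11. Of 12 thioredoxin and related genes Sod1 (1.55) rose and Prdx6 (-2.37), Sod2 (-1.28) and Txn1 (-1.06) fell. Of 9 genes of NADPH supply and further targets, Idh1 (1.00) rose, and Abcc1 (-2.59) and Pgd (-0.93) fell.

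The change from D1 to D10 was compared between macrophages and microglia by an interaction term over 11357 genes, added after the data were seen. The fit had no term for the library, so microglia and macrophages of the same mixed library, which share animals, entered as separate sums. For Slc40a1 the macrophage change was lower by 3.09 on the log2 scale (SE 1.00, adjusted p = 0.0449). Microglial libraries had 2.56 to 5.69 CPM of it at D1 and 24.4 to 36.9 CPM at D10, and macrophage libraries 1.32 to 16.9 CPM and 1.49 to 3.33 CPM. For Slc7a11 it was lower by 4.35 (SE 1.45, adjusted p = 0.0498). Neither call was stable: with each of the 10 libraries of D1 and D10 left out in turn, that of Slc40a1 was lost in every fit (adjusted p = 0.0547 to 0.147), and that of Slc7a11 remained in 2 fits, without mixed D1 library 3 or infiltrating D1 library 1. For Hmox1 the difference was -0.88 (SE 0.62, adjusted p = 0.363), so a difference between the types in its fall was not shown.

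Heavy and light ferritin were also compared as the ratio of Fth1 to Ftl1 UMIs within a library, which does not depend on scaling between libraries. In microglia it was 1.92 and 2.94 in Ctrl and 1.19, 1.63 and 2.93 at D1. It was 1.20, 0.811 and 0.706 at D2 and 1.23, 1.02, 0.528, 0.485 and 0.938 at D3. It was 1.55, 1.5 and 1.41 at D10 and 1.70 at D21. The D10 libraries lay above every D3 library, and D1 and D3 overlapped by 1 library each. From D1 to D3 the mean log2 ratio differed by -1.18, a 0.441-fold ratio (2-sided exact permutation test, p = 0.0714, adjusted p = 0.0714). From D3 to D10 it differed by 0.916, a 1.89-fold ratio (2-sided exact permutation test, p = 0.0536, adjusted p = 0.0714). Neither passed the threshold, and the smallest p that the 56 arrangements allow is 0.0179.

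**Figure D3:**
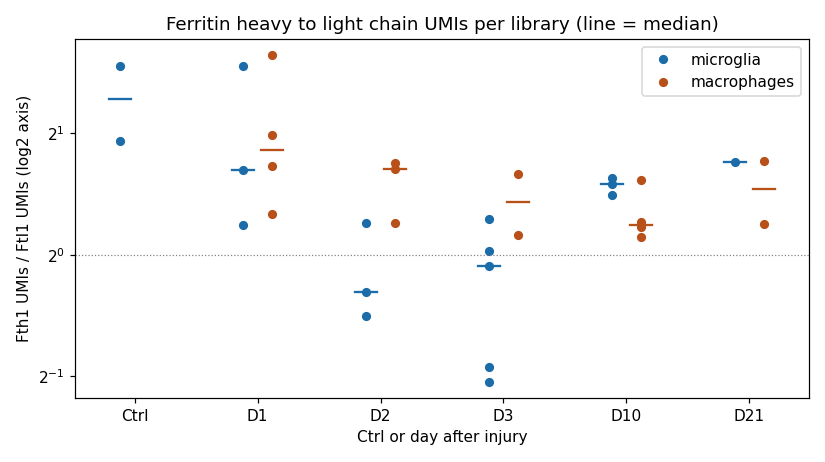
Ratio of Fth1 to Ftl1 UMIs in each library by time, on a log2 axis, for microglia and macrophages, with a point per library and a line at the median. Microglia at D3 spread from 0.485 to 1.23, and the D10 libraries sit between 1.41 and 1.55.

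Cell types were compared within libraries, where cells share animals, sort and pool. The types were called by the authors on the expression of the same cells, so these differences describe the types and their tests are not independent of the way they were drawn. Macrophages and microglia were both present in 14 libraries. Of the 9 genes tested 7 were called, 6 of them higher in macrophages, beside 35.3% of the 9898 genes tested. Slc7a11 was higher in macrophages in 12 of them and lower in 1, with a median of 51.4 CPM against 2.03 CPM (log2 4.05, SE 0.51, adjusted p = 9.98e-08). Srxn1 was higher in 13 of 14 (33.5 against 12.9 CPM, log2 1.77, SE 0.28, adjusted p = 3.70e-06) and Gclm in 13 of 14 (115 against 52.2 CPM, log2 1.16, adjusted p = 0.00169). Slc40a1 was lower in macrophages in 11 of 14, with 3.32 against 16.3 CPM (log2 -1.39, SE 0.37, adjusted p = 0.00355). Hmox1 was higher in macrophages in 10 of 14 (log2 0.66, SE 0.33, adjusted p = 0.126) and did not pass. The fit gives a single difference over all times. The 4 libraries where Hmox1 was lower in macrophages were all of D10 or D21. In every D1, D2 and D3 library with both types it was higher in macrophages. The calls of Fth1 (0.79) and Prdx1 (0.65) were lost when single libraries were left out, with adjusted p up to 0.0546 and 0.0966. Txnrd1 was higher in macrophages in 12 of 14 libraries (median 106 against 58.8 CPM) and Ftl1 in 10 of 14 (16728 against 10879 CPM).

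Dendritic-like cells had less of these genes than macrophages: all 9 genes tested were called, each lower, beside 31.9% of all genes. In all 10 libraries with both types, Hmox1 was lower in dendritic-like cells, which ranged from 3.26 to 104.9 CPM beside 73.6 to 3932 CPM in macrophages. The log2 difference was -4.80 (SE 0.46, adjusted p = 4.21e-10, 27.8-fold lower). Ftl1 (-2.34), Fth1 (-2.16), Gclm (-2.15), Srxn1 (-2.08), Prdx1 (-1.50) and Txnrd1 (-1.14) were lower in 10 of 10 libraries as well. Slc40a1 had at most 0.388 CPM in any dendritic-like sum of those libraries. In Slc7a11, the 1 gene of the 9 tested whose direction varied, 7 of 10 libraries were lower and 2 higher (log2 -1.51, adjusted p = 0.015), and the call was lost with DESeq2.

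Neutrophil-like cells had more Slc40a1 and less Hmox1 and Prdx1 than macrophages. Of the 9 genes 4 were called (1 higher, 3 lower) beside 53.8% of all genes. In the 4 libraries of known sort Slc40a1 had 93.7, 91.3, 118 and 177 CPM, from 41, 130, 81 and 17 UMIs, and in the library with conflicting labels it had 104 CPM from 210 UMIs. The macrophages of the same 5 libraries ranged from 0.679 to 2.83 CPM. The log2 difference was 5.80 (SE 0.48, adjusted p = 1.06e-11, 55.8-fold higher). Hmox1 went the other way in 5 of 5 libraries, with 190 to 554 CPM beside 1661 to 3932 CPM (log2 -2.91, SE 0.53, adjusted p = 2.33e-05). Prdx1 was lower in 5 of 5 (35.0 to 977 CPM beside 2150.1 to 3659 CPM, log2 -3.00, SE 0.43, adjusted p = 5.77e-07). The fourth, Txnrd1 (-0.69, adjusted p = 0.045), was lost under median-of-ratios scaling, with DESeq2 and with a minimum of 50 cells. Fth1 (0.25, adjusted p = 0.619) and Ftl1 (-0.07, adjusted p = 0.893) did not pass. The erythroid markers summed to 285.7, 48.5 and 51.0 CPM in the infiltrating neutrophil-like sums, 0 in mixed D2 library 2 and 675.7 CPM in the library with conflicting labels. Their part in the Slc40a1 values was not tested.

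**Figure D4:**
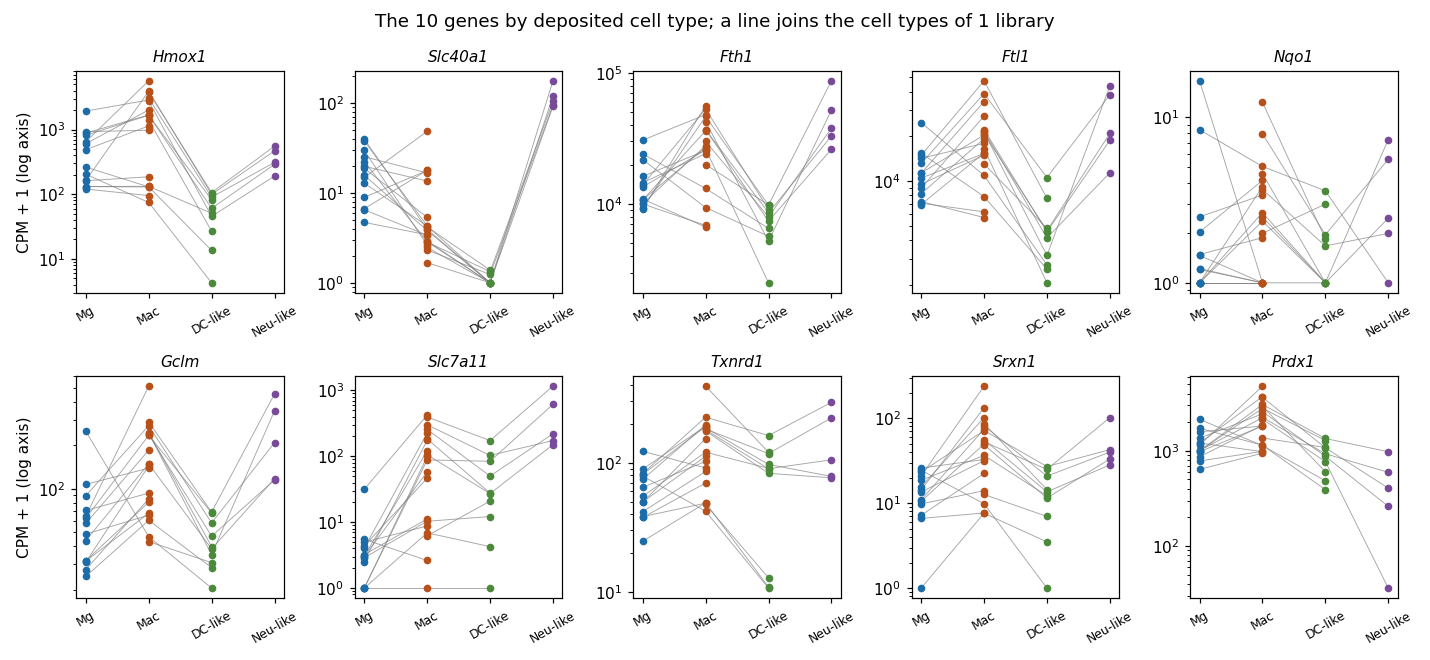
Level of each of the 10 genes (CPM + 1, log axis) in the cell types of the same library, with a line joining the points of a library. Slc40a1 in neutrophil-like cells (91.3 to 177 CPM) lies above the macrophages of the same libraries (0.679 to 2.83 CPM), and Hmox1 in dendritic-like cells lies below the macrophages in 10 of 10 libraries.

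From the wider lists, Hp (7.01), Cd163 (5.85), the haptoglobin and haptoglobin receptor genes of hemoglobin clearance, and the heme exporter Flvcr1 (2.35) were higher in macrophages than in microglia of the same library, and Slc46a1 (-3.30) and Abcg2 (-2.58) were lower. Beside 35.3% of all genes called, 5 of 18 heme genes were higher and 5 lower. Of the 9 NRF2 regulators 5 were higher and none lower, led by Sqstm1 (1.15), Bach1 (0.70) and Mafg (0.61). Of 10 genes of NADPH supply and further targets 7 were higher, led by Osgin1 (2.90), and 2 lower. The iron list had 5 higher and 3 lower of 19, the glutathione list 4 higher and none lower of 13. The thioredoxin and related list had 5 higher and 4 lower of 12. In neutrophil-like cells, where 53.8% of all genes were called, the metal reductase Steap4 (7.12), Lcn2 (4.85) and Osgin1 (4.65) were higher than in macrophages, and Steap3 (-5.15), Hfe (-3.05) and Prdx4 (-4.17) were lower. There 6 of 19 iron genes were higher and 6 lower, 2 of 18 heme genes were higher and 6 lower, and 4 of 9 NRF2 regulators were higher and 1 lower. Of the 13 glutathione genes 3 were higher and 8 lower, of 12 thioredoxin and related genes 2 were higher and 8 lower, and of 10 genes of NADPH supply and further targets 1 was higher and 4 lower. Hp and Cd163 are also on the marker lists, and Hp counted as a monocyte marker of the macrophage type.

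The sort uses the reporters, not expression. It also divides the cell types: microglia were 67.9% to 100% of the cells in resident libraries and 0.253% to 26.5% in infiltrating ones, where macrophages were 55.6% to 90.3%. Over whole libraries, Slc40a1 had 3.13 and 8.46 CPM (D1), 10.98 (D2), 1.99 (D3), 1.53 and 2.75 (D10) and 6.28 CPM (D21) in infiltrating sorts. Resident sorts had 71.7 CPM (Ctrl), 17.95 (D2), 15.7 and 13.2 (D3) and 21.6 CPM (D10). The sorts did not overlap, and at each time with both, the infiltrating libraries were lower. Of the Slc40a1 UMIs of the infiltrating D1 and D2 libraries, 41 of 62, 130 of 161 and 81 of 85 came from neutrophil-like cells. Sort and make-up by type cannot be told apart in these values. The log2 difference, adjusted for time and sex, was -2.41 (SE 0.58, adjusted p = 0.0321). It was the only 1 of 9 genes tested to pass, beside 10.7% of the 10074 genes tested. The call was lost when any 1 of 6 of the 12 libraries was left out, with adjusted p up to 0.203, and when the library with conflicting labels (7.92 CPM) was added as resident. Slc7a11 was next (1.88, SE 0.58, adjusted p = 0.0739), and Hmox1 differed by 0.23 (SE 0.36, adjusted p = 0.745).

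The 16 deposited clusters divide the types further, and they were drawn on the expression of these cells, so their levels are a description. Cluster 1 held Ctrl cells only, and cluster and time are tied in others too. Pooled over libraries and times, Hmox1 was highest in macrophage cluster 11 (3399 CPM) and in the macrophages of cluster 2 (3147 CPM), and lowest in cluster 1 (46.7 CPM) and the dendritic-like cluster 15 (47.5 CPM). At D1 alone the 1 library with 20 cells of cluster 9 had more (6906 CPM) than the 2 with cluster 11 (4372 and 4463 CPM). Slc40a1 was highest in neutrophil-like cluster 16 (106 CPM), cluster 1 (90.1 CPM) and macrophage cluster 14 (83.8 CPM, from 29 UMIs), then in microglial cluster 4 (41.4 CPM), and was at 17.0 CPM or less in every other cluster. Cluster 14, with 118 cells, also had the highest pooled Slc7a11 (705 CPM), Srxn1 (321 CPM), Txnrd1 (338 CPM) and Gclm (332 CPM). Its cells had a median of 1488 UMIs and came from 14 libraries, of which 2 held 20 such cells. In those 2 libraries Srxn1 was at 29.2 and 104.7 CPM, Slc7a11 at 142 and 380 CPM, Gclm at 58.4 and 404 CPM and Slc40a1 at 29.2 and 37.4 CPM. Over libraries with 20 cells, the median of Srxn1 was higher in cluster 12 (89.5 CPM), as was that of Slc7a11 (283 CPM), that of Gclm was higher in cluster 11 (319 CPM) and that of Slc40a1 in cluster 4 (41.6 CPM). The order of the pooled levels did not hold by library for these 4 genes. After cluster 14, pooled Slc7a11 was highest in cluster 16 (474 CPM), cluster 11 (260 CPM) and cluster 12 (249 CPM). Fth1 ranged from 2929 CPM in cluster 13 to 55025 CPM in the macrophages of cluster 2.

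**Figure D5:**
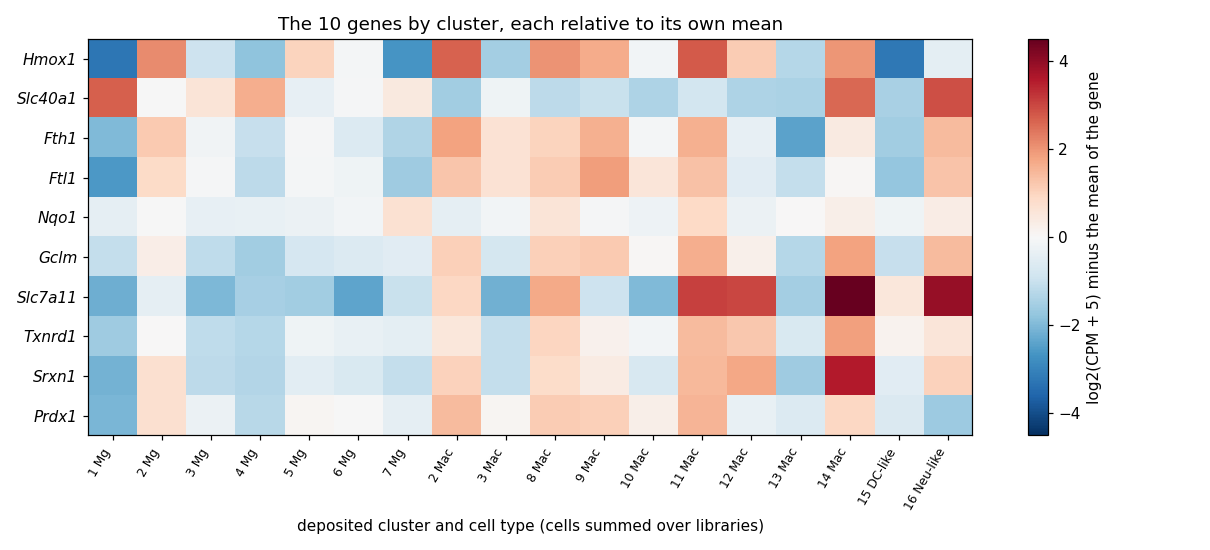
Each of the 10 genes in the deposited clusters and types, as log2(CPM + 5) minus the gene's own mean over the columns, with cells summed over libraries. Pooled over libraries, cluster 14 is the highest for Slc7a11 (705 CPM) and Srxn1 (321 CPM), which did not hold for the medians over its 2 libraries with 20 cells, and Slc40a1 is highest in clusters 16 and 1.

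Hmox1 also differed with time inside single clusters. In microglial cluster 5 it was 775 to 1589 CPM at D1 (3 libraries), 525.5 to 1762 CPM at D3 (4 libraries), 131 and 189 CPM at D10 and 259 CPM at D21. In the microglia of cluster 2 it was 2381 to 2825 CPM at D1 and 282 to 344 CPM at D10, with 3 libraries each. The D10 libraries lay below all D1 libraries in both clusters. In macrophage cluster 11 it was 4372 and 4463 CPM at D1, 4582 to 9866 CPM at D2 and 1981 and 3598 CPM at D3. In cluster 9 it was 6906 CPM in the 1 D1 library, 28.4 and 1680.2 CPM at D3 and 105 and 128 CPM at D10, so the 2 D3 libraries were far apart. Other clusters went another way. In macrophage cluster 13, with 1 library at each time, Hmox1 was 93.4 CPM at D1, 86.7 CPM at D3 and 372 CPM at D10. In microglial cluster 3 it was 169 CPM in the 1 D1 library, 101 to 701 CPM at D3 (median 520 CPM, 5 libraries) and 129 to 134 CPM at D10.

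Across the 16 clusters the genes fell into patterns that were partly shared. On log2(CPM + 5), Txnrd1 and Srxn1 gave Pearson's r of 0.94, Fth1 and Ftl1 0.93 and Slc7a11 and Srxn1 0.88. Slc40a1 gave -0.24 with Hmox1 and -0.49 with Prdx1. Among 8877 genes with 20 CPM or more in at least 1 cluster, those most like Hmox1 were Ccl7, a monocyte-attracting chemokine (r = 0.91), Capg, an actin capping protein (r = 0.88), and Plin2, a lipid droplet coat protein (r = 0.88). Those most like Slc40a1 were Otud7b, a deubiquitinase (r = 0.93), Zfp787 (r = 0.92) and Sipa1l2 (r = 0.91). These are descriptions over 16 points that share libraries and differ in depth.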

How the data were processed

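UMI counts per gene and cell were deposited by the authors. Per the submitters' processing notes, Cell Ranger 3.1.0 and the build GRCm38 (mm10) were used, with the role of each not stated, and the deposited cell table gives cluster, type and pool codes and a mitochondrial percentage per cell from the authors. Cells were joined by barcode, and no cell was removed. The treatment of doublets is not given in the sources used here, and no doublet caller was run. Counts were summed per library and deposited type (at least 20 cells) and tested with edgeR 4.0.16 in R 4.3.3: quasi-likelihood fit, TMM scaling, filterByExpr, terms for time and sex (or library and type, or sort, time and sex), Benjamini-Hochberg over all genes, threshold 0.05. The fold changes come from this fit and differ from ratios of CPM. The microglial fit held 17 sums (135097 to 7794902 UMIs), the macrophage fit 15 (235999 to 22068469 UMIs) and the sort fit 12. On simulated counts for microglia D3 against Ctrl (10801 genes), 55% of 4-fold and 7% of 2-fold changes were recovered, with 3 false calls. DESeq2 1.42.0, median-of-ratios scaling, no filter, 50 cells, pool as a term, sorts apart and left-out libraries were alternatives. Values of all 10 genes are given, though not for every comparison. From each list at most 3 called genes per direction with the largest change are named, and for Hmox1 and Slc40a1 the 3 most alike genes over clusters. The genes and lists were chosen with earlier results of these data known. Same-numbered libraries did not deviate together, so numbers do not pair samples. Promoters come from RefSeq, hairpins and positions from GENCODE M21. P-values measure the spread between these libraries.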

Additional observations from a re-analysis of the deposited data

Results flagged for a closer look

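Of 30 groups of 4 to 10 libraries screened, 4 held a library far from the others, where chance flags about 1 in 20 groups. Nqo1 in D3 microglia was 2.06 CPM in mixed library 1, which is 1 UMI. Slc40a1 in D1 macrophages was 16.9 CPM in mixed library 1, which is 4 UMIs. Hmox1 in D10 macrophages was 94.3 CPM in mixed library 2, below the other 3 libraries. Txnrd1 in D10 macrophages was 84.6 CPM in mixed library 1, above the other 3.

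The change from D1 to D10 differed between macrophages and microglia by the interaction test for Slc40a1 (-3.09 on the log2 scale, adjusted p = 0.0449) and for Slc7a11 (-4.35, adjusted p = 0.0498), both near the threshold. That fit had no term for the library. With each of 10 libraries of D1 and D10 left out in turn, an alternative chosen after seeing the data, Slc40a1 was called in 0 fits (adjusted p = 0.0547 to 0.147, difference -3.45 to -2.84) and Slc7a11 in 2 (adjusted p = 0.014 to 0.180, difference -6.41 to -3.84).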

How the results depend on the processing

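Over single genes, 933 of 1059 values under other settings and 2417 of 2600 with a library left out kept direction and side of the threshold. A further 47 and 61 changed sign without being called in either fit. One called value reversed: Slc40a1 in D3 microglia against Ctrl, 0.29 with pool as a term. The number of the 10 genes called moved as follows, with only the larger relative changes listed. Without the filter on low counts it was 7 for macrophages D10 against D3 (1 in the report) and 2 for the sort (1). With DESeq2 it was 8 for macrophages D10 against D3, 2 for macrophages D21 against D1 (1) and 4 for microglia D10 against D3 (2). With pool as a term it was 3 for microglia D3 against Ctrl (8) and 0 for microglia D10 against D3. In mixed libraries alone it was 4 for microglia D3 against Ctrl, 2 for microglia D10 against Ctrl (5), 3 for macrophages D3 against D1 (0), 0 for macrophages D21 against D1 and 5 for macrophages D10 against D3. With the conflicting library added as infiltrating it was 4 for macrophages D10 against D3 and 2 for the sort, and as resident 0 for the sort. The cause was not tested. The number of all genes called can change with the setting too, and for most settings of this section it is not given here. A change particular to these genes and a general one cannot be told apart by these counts. Infiltrating D2 library 1 is labelled female and carries the male code in the deposited cell table. With that code, an alternative chosen after seeing the data, no call of the 10 genes changed in macrophages or between the sorts.

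With each library left out in turn, the count in microglia was 7 to 9 (D1 against Ctrl), 5 to 9 (D2), 6 to 8 (D3), 1 to 6 (D10), 3 to 6 (D21), 1 to 4 (D3 against D1) and 1 to 3 (D10 against D3). In macrophages it was 0 to 0 (D2 against D1), 0 to 0 (D3), 3 to 7 (D10), 0 to 1 (D21) and 1 to 3 (D10 against D3). It was 0 to 3 for the sort, 5 to 8 for macrophages against microglia, 8 to 10 for dendritic-like cells and 3 to 5 for neutrophil-like cells against macrophages. The log2 ferritin ratio ranged from -1.47 to -0.821 (D3 against D1) and from 0.742 to 1.08 (D10 against D3). Microglia D3 against D1 fell to 1 without mixed D1 library 3, microglia D10 against D3 to 1 with any 1 D10 library left out, and macrophages D10 against D3 rose to 3 with either D3 library left out and to 2 with either D21 library left out. The sort gave 2 without infiltrating D1 library 1 or 2, 3 without resident D10 library 1, and 0 without infiltrating D3 library 1, either resident D3 library or either infiltrating D10 library.

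Same-numbered libraries correlated in their deviations by -0.198 to 0.122. With the number as a replicate block in mixed libraries, 4 genes were called in microglia D3 against D1 and 3 in D10 against D3. The same libraries without it, an alternative chosen after seeing the data, gave 3 and 2. Median-of-ratios scaling moved the median of all genes by -0.170 (D1), -0.103 (D2), -0.103 (D3) and -0.101 (D21) in microglia against Ctrl and by 0.121 in neutrophil-like cells against macrophages, on the log2 scale. Depth was low for some genes: the microglial sums of the time comparisons held 20 UMIs of Nqo1, 256 of Slc7a11, 579 of Srxn1 and 1415 of Slc40a1, and the Ctrl libraries 0, 13, 9 and 671. The macrophage sums held 209 of Slc40a1 and 414 of Nqo1.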

Other observations

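The following sums were left out of the comparisons over time, and entered only those between cell types of 1 library. Macrophages from resident sorts had Hmox1 at 2014 CPM (D2), 1137 and 975 CPM (D3) and 132 CPM (D10), and Slc40a1 at 12.6, 16.9, 4.37 and 15.8 CPM. In the library with conflicting labels the macrophages had 1661 CPM of Hmox1 and 1.84 CPM of Slc40a1. Microglia from infiltrating sorts had Hmox1 at 262 CPM (D10 library 2) and 203 CPM (D21 library 1). In the latter Gclm was 249 CPM and the erythroid markers summed to 19652 CPM.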
